A study of Mus musculus with 6 samples.

Results

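The TRIM (tripartite motif) genes expressed in epididymal white adipose tissue (eWAT), the fat depot beside the mouse testis, were described around Trim27, which encodes RFP. Members were the genes whose symbol is Trim followed by digits and at most 1 lower-case letter, with 60 or more counts summed over all libraries, and 42 of the 40213 genes in the deposited table met this rule. A further 26 TRIM symbols lay under the minimum, 10 of them with no count in any library. Trim6, with 61 counts, was just inside the minimum and Trim80, with 49 counts, was just outside it. The study compared eWAT of 3 male RFP KO mice (RFP KO-HFD) with that of 3 male wild-type littermates (WT-HFD), 1 mRNA-seq library per mouse. The RFP KO was carried in the whole body, and at 8 to 10 weeks of age all 6 mice were put on a high-fat diet (HFD, 60% fat), which lasted 12 weeks. Which part of Trim27 the KO allele removes is not given in the sources used here, so reads left in the KO libraries could not be placed inside or outside it.

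TRIM proteins share an N-terminal RING finger, B-boxes and a coiled coil, and most act as E3 ubiquitin ligases that pass ubiquitin from an E2 enzyme to a chosen protein. The domain at the C-terminus picks that protein and divides the family into classes, of which the PRY-SPRY class, to which RFP belongs, is by far the biggest. Several PRY-SPRY genes are induced by interferon and restrict viruses, whereas the PHD-bromodomain TRIMs bind chromatin and the COS-box TRIMs bind microtubules.

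Among the libraries, the one labelled RFP KO-HFD 1 differed from the rest in depth and in markers. It held 4870239 counts, against 13309044 to 13924363 in the other two RFP KO-HFD libraries and 15216306 to 17215047 in the WT-HFD libraries. Its summed level of 10 hepatocyte markers was 26954 CPM (counts scaled to the library total), against 636 and 1161 CPM in RFP KO-HFD 2 and 3 and 123 to 172 CPM in WT-HFD, and none of these markers was at 0 in any library. Of 10 adipocyte markers, Adipoq and Plin1 had no count in RFP KO-HFD 1, where the list summed to 11988 CPM, against 29401 and 35027 CPM in RFP KO-HFD 2 and 3 and 19987 to 31290 CPM in WT-HFD. Lpl, which many tissues express, made up 11647 CPM of that sum in RFP KO-HFD 1, and the other 9 markers summed to 341 CPM there, against 23098 and 29035 CPM in RFP KO-HFD 2 and 3 and 13812 to 22111 CPM in WT-HFD. In RFP KO-HFD 2 the male germ cell markers summed to 509 CPM, against 0.523 to 1.77 CPM in WT-HFD. In WT-HFD 2 the epididymal markers summed to 1092 CPM and the smooth muscle markers to 27707 CPM, above the 0.489 to 7.04 CPM and 41.1 to 1909 CPM of all other libraries. The epididymal sum rested on Crisp1 (7424 counts in WT-HFD 2) and Spink8 (9166 counts), and each other epididymal marker had at most 16 counts there. The main results are therefore given with and without RFP KO-HFD 1, and the part these other cell types have in it was not tested. In bulk tissue, fewer cells of a type and less RNA per cell cannot be told apart.

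Sequences are shown first for the genes that several of the results turn on. Trim12c, Trim12a and Trim5, neighbours on chromosome 7 and mouse relatives of the human retroviral restriction factor TRIM5, have closely similar coding sequences. The longest coding sequence was 1491 bases in Trim12c and in Trim5 but 891 bases in Trim12a, which was placed in the PRY-SPRY class by its family and not by a domain search. Over the aligned bases, 891 for the pairs with Trim12a, these sequences were 96.4% (Trim12c and Trim12a), 96.6% (Trim12c and Trim5) and 97.1% (Trim12a and Trim5) identical. The first 90 coding bases, from the GENCODE M21 transcripts, are printed as an example of a stretch that the 3 genes nearly share, with capitals at the 2 positions that differ.
Trim12c: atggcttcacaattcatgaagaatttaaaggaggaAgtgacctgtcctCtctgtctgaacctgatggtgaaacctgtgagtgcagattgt
Trim12a: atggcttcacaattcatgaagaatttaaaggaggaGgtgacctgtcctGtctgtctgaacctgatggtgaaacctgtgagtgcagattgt
Trim5: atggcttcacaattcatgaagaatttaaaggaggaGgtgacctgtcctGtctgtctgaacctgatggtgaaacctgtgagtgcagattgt
Over whole transcripts, 38.7% of all 31-base words of Trim12c also occurred in Trim5, and 43.5% of all its words in Trim5 or another TRIM gene. The share was 43.8% for Trim5, 48.7% for Trim34a, 11.8% for Trim12a, 11.8% for Trim30d and 10.5% for Trim30a. Most words of each were thus not found in another TRIM gene, and words shared with genes outside the family were not counted. The counts of these genes are uncertain relative to each other to that extent, least so for Trim12a and the Trim30 genes. Trim27 shared 0.234% and Trim67 0.0459% of their words with other TRIM genes.

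Promoters were searched for the core of the interferon-stimulated response element, written GAAA, any 2 bases and GAAA again, on both strands of the 250 bases before the start. RefSeq windows (GRCm38.p6) were found for 31 of the 42 members. The motif occurred in 978 of 32851 windows of all genes (2.98%) and in 11.6% of the 43 windows of TRIM members, those of Trim5, Trim12c, Trim30a, Trim30d and Trim26. The stretches of Trim5 and Trim12c are nearly the same, as are those of Trim30a and Trim30d, so the 11.6% does not count separate occurrences. The stretches that hold it are printed from 5′ to 3′ on the strand of each gene, with the match in capitals. All matches lay on the opposite strand, so they read TTTC, any 2 bases and TTTC here.
Trim12c: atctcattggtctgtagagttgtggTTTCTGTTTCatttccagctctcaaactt
Trim5: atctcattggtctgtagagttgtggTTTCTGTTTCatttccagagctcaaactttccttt
Trim30a: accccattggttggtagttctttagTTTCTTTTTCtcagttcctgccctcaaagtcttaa
Trim30d: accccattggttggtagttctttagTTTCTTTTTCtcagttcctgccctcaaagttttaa
Trim26: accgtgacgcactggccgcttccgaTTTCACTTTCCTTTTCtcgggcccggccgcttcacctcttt
These stretches lie at chr7:104353350-104353403 (Trim12c), chr7:104288121-104288180 (Trim5), chr7:104465195-104465254 (Trim30a) and chr7:104507856-104507915 (Trim30d), all on the minus strand, and at chr17:36836961-36837026 on the plus strand (Trim26). The match began 29 bases before the start in Trim12c, 49 in Trim5, 36 in Trim30a and 41 in Trim30d. In Trim26 a pair of overlapping matches began 160 and 154 bases before the start. The window of Trim27 held no match, nor did that of Pml, a TRIM gene without a Trim symbol. Those of the interferon-linked Trim6, Trim12a, Trim21, Trim25, Trim30b, Trim34a and Trim56 held none either. This says only that these letters are not in those windows.

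The first question was whether the targeted gene was lower in the KO libraries. Trim27 encodes RFP, a PRY-SPRY E3 ligase first found as part of a fusion with the RET kinase, and the deposited table places it on chromosome 13, bases 21363570 to 21378893, plus strand (the table names GRCm39, whereas the processing notes list mm10). It had 19.4, 4.10 and 4.63 CPM in RFP KO-HFD 1, 2 and 3, against 22.7, 40.2 and 29.5 CPM in WT-HFD 1, 2 and 3, on the scale of CPM normalized by the trimmed mean of M-values (TMM), used from here on unless stated. The raw counts were 96, 56 and 42 in RFP KO-HFD, against 414, 707 and 564 in WT-HFD. The groups did not overlap, but RFP KO-HFD 1 lay just under the lowest WT-HFD library, whereas RFP KO-HFD 2 and 3 averaged 0.142 times the WT-HFD mean. The log2 fold change, RFP KO-HFD over WT-HFD, was -1.72 ± 0.75 (standard error), with adjusted p = 0.760 in edgeR's quasi-likelihood test over all 14706 genes tested. Without RFP KO-HFD 1 it was -2.83 ± 0.33, with adjusted p = 0.0653 in edgeR, and without both RFP KO-HFD 1 and WT-HFD 2 it was -2.59 with adjusted p = 0.0402. The CPM of Trim27 in the library labelled RFP KO-HFD 1 was thus nearer to the lowest WT-HFD library than to RFP KO-HFD 2 and 3. Why it was higher there was not tested, and that library also held the hepatocyte markers described above. Directions that rest on that library are given as such.

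**Figure D1:**
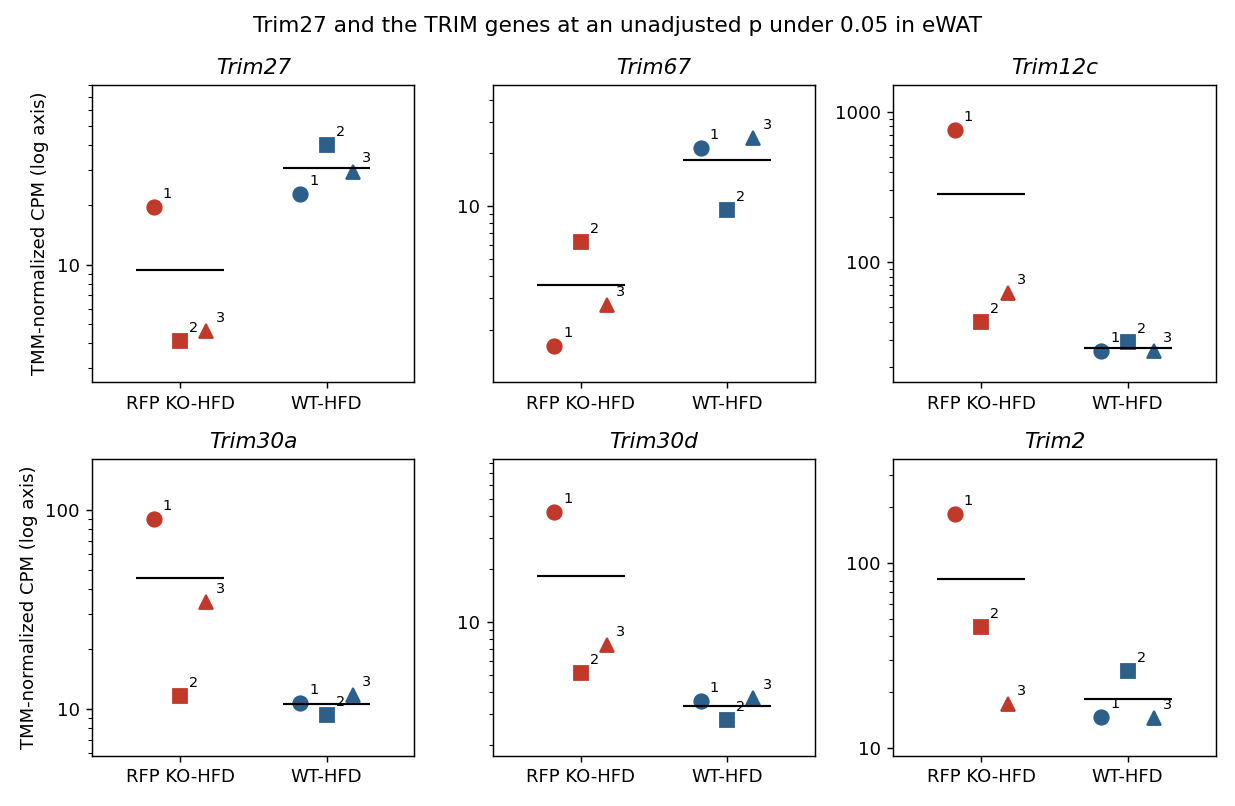
Level of Trim27 and of the 5 TRIM genes at an unadjusted p under 0.05 in each library, as TMM-normalized CPM on a log axis. Points are libraries with their replicate number, RFP KO-HFD at the left and WT-HFD at the right of each panel, and bars are group means. RFP KO-HFD 1 has 19.4 CPM of Trim27, near the WT-HFD libraries, and 757 CPM of Trim12c, far above all others.

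The second question was whether other members of the family moved with the loss of RFP. Of the 42 members, 40 passed the filter on low counts and were tested. No member passed at an adjusted p under 0.05 in edgeR (0% of all genes tested, 0 genes), with adjusted p between 0.656 and 0.998. At an unadjusted p under 0.05 there were 5 members, or 12.5% of those tested, against 6.75% of all genes. Trim12c, Trim30a, Trim30d and Trim2 were on the higher side, where all genes gave 4.05%, and Trim67 was on the lower side, where all genes gave 2.70%. This count was 0 without WT-HFD 1, 1 without WT-HFD 2 and 0 without WT-HFD 3. DESeq2 called 1 member at an adjusted p under 0.05, Trim67, beside 3.32% of all genes. It gave p-values for 39 members and none for Trim12c, so it neither called nor passed over that gene. Limma-voom with quality weights called 1 member, Trim27, beside 7.20% of all genes.

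Across the 40 members, 17 log2 fold changes were above 0 and 23 below. Their median was -0.13, as was that of all genes tested (-0.13), and 28 members had a log2 fold change between -1 and 1. Without RFP KO-HFD 1, the median was 0.066 for 41 members and -0.070 for all genes, and 34 members lay between -1 and 1. No member passed at an adjusted p under 0.05 in edgeR in that comparison, against 0.0128% of all genes (2 genes). There 4 members were at an unadjusted p under 0.05 (9.76%), Trim27 and Trim67 on the lower and Trim12c and Trim29 on the higher side, against 24.7% of all genes. The groups did not overlap for 7 tested members (17.5%), against 23.3% of all genes. Of these, Trim12c and Trim30d were higher in every RFP KO-HFD library and Trim27, Trim67, Trim35, Trim13 and Trim44 lower in every one, and among all genes 1070 were higher and 2350 lower in this way. Without RFP KO-HFD 1, the groups did not overlap for 12 members (29.3%), 6 higher and 6 lower, against 45.3% of all genes.

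**Figure D2:**
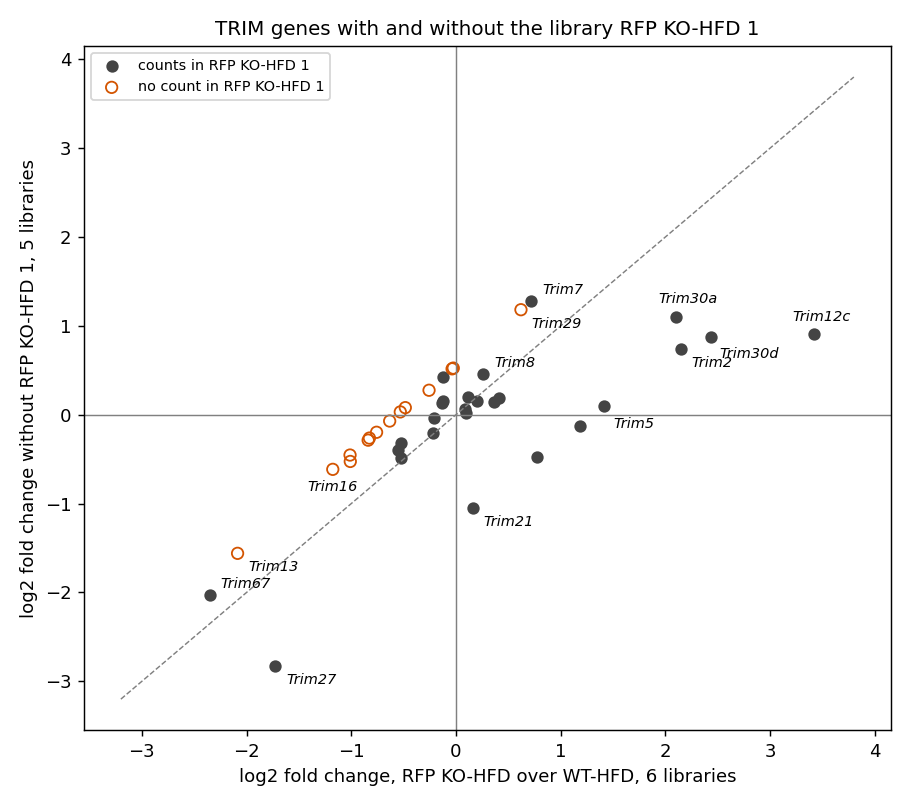
Log2 fold change of the 40 tested TRIM genes, RFP KO-HFD over WT-HFD, over all 6 libraries (horizontal axis) and over 5 libraries without RFP KO-HFD 1 (vertical axis), where the dashed line marks equal values and open circles mark genes with no count in RFP KO-HFD 1. Trim67 is low on both axes (-2.35 and -2.03), Trim27 is lower without that library (-1.72 and -2.83), and Trim12c is much less high without it (3.42 and 0.91).

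Much of the spread between members came with RFP KO-HFD 1. In this library 15 of the 42 members had no count, including 14 of the 40 tested (35%, against 34.1% of all genes). It was the lowest of the 6 libraries for 57.5% of tested members, against 60.2% of all genes, and the highest for 25%, against 25.4%. Across the 40 members, log2 levels in RFP KO-HFD 1 correlated with those in the other libraries at Pearson's r of 0.546 to 0.630, whereas WT-HFD 1 and 3 reached 0.990 and RFP KO-HFD 2 and 3 reached 0.917. These coefficients are across genes, which are not independent replicates. A count of 0 in RFP KO-HFD 1 allows up to 0.616 CPM of the library total, for counting error only.

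**Figure D3:**
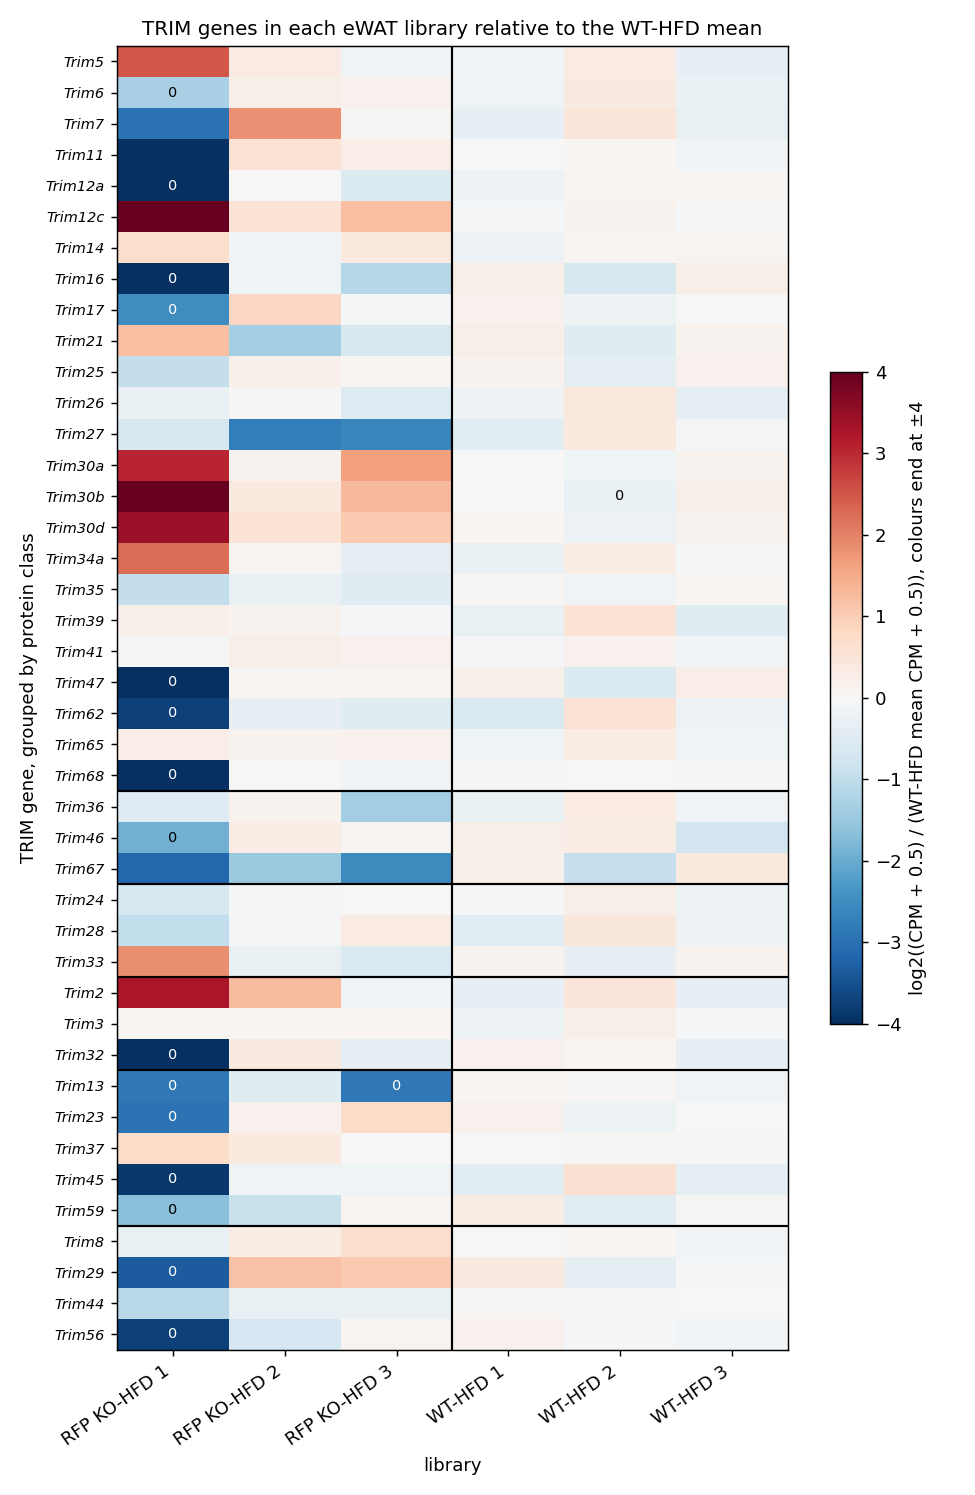
Level of the 42 TRIM genes in each library relative to the WT-HFD mean, as log2 of the ratio with 0.5 CPM added to both, with RFP KO-HFD at the left and WT-HFD at the right. Black lines separate the protein classes (from the top PRY-SPRY, COS-box, PHD-bromodomain, NHL, other C-termini, no named C-terminal domain) and a 0 marks a library with no count. The column of RFP KO-HFD 1 holds both the strongest colours and 15 of the zeros.

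Trim67 was the member with the lowest log2 fold change. It encodes a COS-box TRIM best known from the brain and lies on chromosome 8. Its level was 1.62, 6.29 and 2.75 CPM in RFP KO-HFD 1, 2 and 3, against 21.3, 9.45 and 24.3 CPM in WT-HFD 1, 2 and 3. All RFP KO-HFD libraries were below all WT-HFD libraries, and the nearest pair was RFP KO-HFD 2 and WT-HFD 2. On the log2 scale its fold change was -2.35 ± 0.80 (adjusted p = 0.656, edgeR), and -2.03 ± 0.58 without RFP KO-HFD 1 (adjusted p = 0.129). DESeq2 gave it an adjusted p of 0.0414 over all libraries. The other COS-box members were Trim36, which binds microtubules and had 2.63, 4.46 and 1.21 CPM in RFP KO-HFD against 3.23, 5.18 and 3.55 CPM in WT-HFD, and Trim46, which organises the microtubules of the proximal axon. Trim46 had 0, 1.83 and 1.54 CPM in RFP KO-HFD, against 1.70, 1.82 and 0.627 CPM in WT-HFD. Both overlapped between groups, and 455 bases of Trim46 overlap Krtcap2 on the opposite strand, which had 3159 counts against 114 for Trim46.

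The PRY-SPRY class held 24 members, of which 22 were tested. Fold changes were above 0 for 11 and below 0 for 11, with a median of 0.036 (0.088 without RFP KO-HFD 1). The 3 at an unadjusted p under 0.05 were Trim12c, Trim30a and Trim30d, which all lie in the run of TRIM genes on distal chromosome 7. This run, from Trim6 to Trim30d, held 8 members, of which 6 were tested. Outside it 2 of 34 tested members were at an unadjusted p under 0.05, Trim67 and Trim2, and among all genes the share was 6.75%. Trim12c was the only gene of the run at an unadjusted p under 0.05 without RFP KO-HFD 1, so the count in the run rested on that library.

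Trim12c had 757, 39.6 and 61.7 CPM in RFP KO-HFD 1, 2 and 3, against 25.4, 29.2 and 25.5 CPM in WT-HFD 1, 2 and 3. Every RFP KO-HFD library was above every WT-HFD library, with RFP KO-HFD 1 far above the rest. In that library Trim12c made up 44.1% of all counts of TRIM members, against 4.24% and 6.60% in RFP KO-HFD 2 and 3 and 2.92% to 3.02% in WT-HFD. On the log2 scale its fold change was 3.42 ± 1.19 (adjusted p = 0.663, edgeR). Without RFP KO-HFD 1 it was 0.91 ± 0.24 (adjusted p = 0.120). Trim34b, under the count minimum with 33 counts in all, overlaps 3518 bases of Trim12c on the other strand.

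Trim12a, the shorter relative of Trim12c, had no count in RFP KO-HFD 1 and 15.9 and 10.8 CPM in RFP KO-HFD 2 and 3, against 13.6, 17.1 and 16.8 CPM in WT-HFD. At the WT-HFD mean, the depth of RFP KO-HFD 1 would have given 87.2 counts of it. Trim5 had 56.4, 12.3 and 8.37 CPM in RFP KO-HFD, against 8.92, 12.3 and 7.57 CPM in WT-HFD. These 3 genes thus took opposite sides in RFP KO-HFD 1, with Trim12c and Trim5 above and Trim12a below every other library. In RFP KO-HFD 2 and 3, Trim5 and Trim12a averaged 1.08 and 0.841 times the WT-HFD mean.

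Trim30a encodes a mouse TRIM that damps Toll-like receptor signalling. It had 90.8, 11.6 and 34.4 CPM in RFP KO-HFD 1, 2 and 3, against 10.7, 9.33 and 11.8 CPM in WT-HFD 1, 2 and 3. RFP KO-HFD 2 lay within the WT-HFD range, so the groups overlapped. Its log2 fold change was 2.10 ± 0.76 (adjusted p = 0.677, edgeR), and 1.10 ± 0.46 without RFP KO-HFD 1 (adjusted p = 0.213).

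Trim30d, its neighbour and relative, had 42.1, 5.12 and 7.38 CPM in RFP KO-HFD 1, 2 and 3, against 3.56, 2.79 and 3.71 CPM in WT-HFD 1, 2 and 3. Each RFP KO-HFD library exceeded each WT-HFD library. The log2 fold change was 2.43 ± 0.99 (adjusted p = 0.723, edgeR), and 0.88 ± 0.40 without RFP KO-HFD 1 (adjusted p = 0.237). Trim30b, which did not pass the filter, had 54, 4 and 9 raw counts in RFP KO-HFD, against 2, 0 and 4 in WT-HFD. On the same strand, 3249 bases of Trim30b overlap Gm38525, which had 65 counts against 73 for Trim30b. Trim6, the other untested member, had 0, 13 and 8 raw counts in RFP KO-HFD, against 11, 19 and 10 in WT-HFD. Trim34a, an interferon-linked gene of the same run, had 30.3, 6.58 and 4.63 CPM in RFP KO-HFD, against 4.87, 7.63 and 5.74 CPM in WT-HFD. It was outside the WT-HFD range on the higher side in RFP KO-HFD 1 and on the lower side in RFP KO-HFD 3. The log2 fold change of Trim34a was 1.18 over all libraries and turned to -0.13 without RFP KO-HFD 1.

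**Figure D4:**
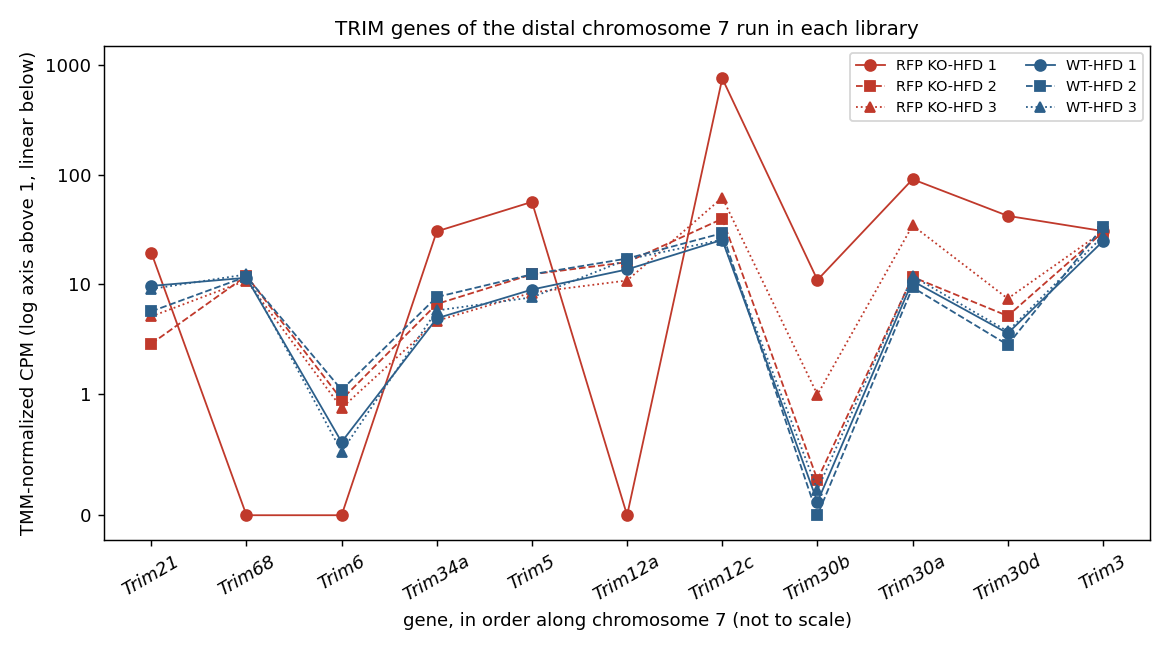
Level of the 11 TRIM genes of distal chromosome 7 in each library, in gene order, as TMM-normalized CPM on an axis that is logarithmic above 1 and linear below. Lines join the values of 1 library. RFP KO-HFD 1 runs above all others at Trim21, Trim34a, Trim5, Trim12c and the Trim30 genes and drops to 0 at Trim68, Trim6 and Trim12a. At Trim21, RFP KO-HFD 2 and 3 run below the WT-HFD libraries, and at Trim12c and Trim30d above them.

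Among the remaining PRY-SPRY genes, Trim35 and Trim41 were named for their level. Trim35, an E3 ligase linked to pyruvate kinase M2, had 35.8, 57.0 and 50.1 CPM in RFP KO-HFD, against 73.0, 63.7 and 73.1 CPM in WT-HFD. The groups did not overlap, and its log2 fold change was -0.55 ± 0.33 (adjusted p = 0.836, edgeR). Trim41, an E3 ligase for protein kinase C, had 33.2, 41.6 and 39.4 CPM in RFP KO-HFD, against 33.2, 39.6 and 32.4 CPM in WT-HFD. Its groups overlapped almost fully.

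Another 5 PRY-SPRY genes had no count in RFP KO-HFD 1, although the depth of that library would have given 12.7 (Trim17) to 180 counts (Trim47) at their WT-HFD means. Trim47 had 34.7 and 35.5 CPM in RFP KO-HFD 2 and 3, against 37.5, 21.7 and 39.2 CPM in WT-HFD. Trim16, which lacks a RING finger and takes part in the clearance of damaged lysosomes, had 18.2 and 9.03 CPM in RFP KO-HFD 2 and 3, against 24.3, 13.2 and 24.5 CPM in WT-HFD. Trim68, a co-activator of the androgen receptor, had 11.9 and 10.8 CPM in RFP KO-HFD 2 and 3, against 11.4, 11.7 and 12.3 CPM in WT-HFD. RFP KO-HFD 3 lay under the WT-HFD range for Trim16 and, by less than 1 CPM, for Trim68. Trim17, which targets the survival protein MCL1 in neurons, had 4.53 and 2.20 CPM in RFP KO-HFD 2 and 3, against 2.68, 1.94 and 2.35 CPM in WT-HFD. On the same strand, 508 bases of Trim17 overlap H2ac25, which had 363 counts against 210 for Trim17. Trim62, which takes part in epithelial polarity, had 4.83 and 4.30 CPM in RFP KO-HFD 2 and 3, against 3.89, 9.56 and 5.17 CPM in WT-HFD. The groups overlapped for all of these genes, with and without RFP KO-HFD 1, and their adjusted p over all libraries was between 0.942 and 0.998 in edgeR.

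The other PRY-SPRY genes included 4 with known parts in the sensing of viral RNA or of antibody-coated particles. Trim21, the cytosolic receptor for antibody, had 19.4, 2.85 and 5.07 CPM in RFP KO-HFD, against 9.63, 5.63 and 9.03 CPM in WT-HFD. It was above all WT-HFD libraries in RFP KO-HFD 1 and below them all in RFP KO-HFD 2 and 3, which gave log2 fold changes of 0.16 (adjusted p = 0.989, edgeR) and -1.05 without RFP KO-HFD 1 (adjusted p = 0.218). Trim25, which ubiquitinates the RNA sensor RIG-I, had a log2 fold change of -0.14, Trim65, which acts on the sensor MDA5, 0.20, and Trim14, a mitochondrial adaptor of the same pathway, 0.37. For Trim26, Trim39 and Trim11 the values were -0.22, 0.097 and -0.13, and Trim11 had 1 count in RFP KO-HFD 1 but lay above every WT-HFD library in RFP KO-HFD 2 and 3. Trim7, which binds glycogenin, the primer of glycogen synthesis, ranged most among them, with 0.202, 18.9 and 5.07 CPM in RFP KO-HFD, against 3.78, 7.11 and 3.86 CPM in WT-HFD. None of these 8 genes was at an unadjusted p under 0.05 in either comparison.

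The PHD-bromodomain class, the TIF1 co-regulators of transcription, had 3 members and log2 fold changes from -0.21 to 0.78. Trim28 (KAP1), the co-repressor that silences retroelements, had the most counts of the family, with 49.5, 95.0 and 124 CPM in RFP KO-HFD, against 73.6, 135 and 84.7 CPM in WT-HFD. The groups overlapped, and its log2 fold change was -0.13 (adjusted p = 0.982, edgeR) and 0.15 without RFP KO-HFD 1 (adjusted p = 0.785), so its sign turned. Trim24, a nuclear receptor co-regulator, had 24.9, 37.2 and 40.2 CPM in RFP KO-HFD, against 37.6, 46.3 and 34.3 CPM in WT-HFD. Trim33, a regulator of SMAD signalling, had 38.2, 8.19 and 6.72 CPM in RFP KO-HFD, against 11.3, 8.14 and 11.4 CPM in WT-HFD. Trim33 was thus above the WT-HFD range in RFP KO-HFD 1 and under it in RFP KO-HFD 3. Its log2 fold change of 0.78 turned to -0.48 without RFP KO-HFD 1.

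Of the 3 NHL-repeat members, Trim2 was the one at an unadjusted p under 0.05. It encodes an E3 ligase for neurofilament light chain and had 183, 44.8 and 17.2 CPM in RFP KO-HFD 1, 2 and 3, against 14.6, 26.0 and 14.5 CPM in WT-HFD 1, 2 and 3. RFP KO-HFD 3 lay below WT-HFD 2, so the groups overlapped. The log2 fold change was 2.15 ± 0.88 (adjusted p = 0.733, edgeR), and 0.74 ± 0.47 without RFP KO-HFD 1 (adjusted p = 0.374). Trim3, a related neuronal gene, kept its RFP KO-HFD libraries within the WT-HFD range, with 30.5, 29.8 and 30.3 CPM in RFP KO-HFD, against 24.6, 33.3 and 27.4 CPM in WT-HFD. Trim32, a ligase mutated in a human muscular dystrophy, had 0, 11.8 and 7.16 CPM in RFP KO-HFD, against 10.5, 9.85 and 7.31 CPM in WT-HFD, and lies within Astn2 on the opposite strand.

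Among the 5 members with other C-termini none was at an unadjusted p under 0.05, and log2 fold changes ran from -2.09 to 0.41. Trim13, which sits in the membrane of the endoplasmic reticulum, had 0, 2.05 and 0 CPM in RFP KO-HFD, against 3.34, 3.19 and 2.77 CPM in WT-HFD. The groups did not overlap, but its log2 fold change of -2.09 ± 1.66 rested on 28 counts in RFP KO-HFD, against 170 in WT-HFD (adjusted p = 0.900, edgeR), and Dleu2 overlaps it on the opposite strand. Trim23, which carries its own ARF GTPase domain, had 0, 3.95 and 5.95 CPM in RFP KO-HFD, against 3.94, 2.90 and 3.39 CPM in WT-HFD. Trim45, with a filamin repeat, had 0, 5.92 and 5.84 CPM in RFP KO-HFD, against 4.71, 10.4 and 5.01 CPM in WT-HFD. Both were at 0 in RFP KO-HFD 1. In RFP KO-HFD 2 and 3, Trim23 lay above every WT-HFD library, though barely so in RFP KO-HFD 2, and Trim45 lay within the WT-HFD range. Trim37, a MATH-domain ligase of peroxisomes and centrosomes, had 49.1, 38.8 and 28.6 CPM in RFP KO-HFD, against 29.2, 30.3 and 28.1 CPM in WT-HFD, and Trim59, a membrane-anchored member with 77 counts in all, stayed under 1.5 CPM in each library.

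The 4 members without a named C-terminal domain were Trim8, Trim44, Trim29 and Trim56, none of them at an unadjusted p under 0.05 over all libraries. Trim8, a regulator of cytokine signalling, had 61.3, 91.9 and 117 CPM in RFP KO-HFD, against 75.6, 79.6 and 69.9 CPM in WT-HFD. Trim44, which has a ubiquitin-protease-type zinc finger in place of the RING, had 40.4, 71.2 and 72.4 CPM in RFP KO-HFD, against 90.7, 84.4 and 89.6 CPM in WT-HFD. Trim44 was lower in every RFP KO-HFD library, with a log2 fold change of -0.52 ± 0.36 (adjusted p = 0.873, edgeR), whereas Trim8 was above the WT-HFD range only in RFP KO-HFD 2 and 3. Trim29, which also lacks a RING and is known from epithelia, had 0, 10.8 and 9.91 CPM in RFP KO-HFD, against 5.86, 3.36 and 4.28 CPM in WT-HFD. Its log2 fold change was 0.62 over all libraries (adjusted p = 0.968) and 1.18 ± 0.36 without RFP KO-HFD 1 (adjusted p = 0.138, edgeR). Trim56, an antiviral member linked to STING, had 0, 3.58 and 6.61 CPM in RFP KO-HFD, against 6.95, 5.75 and 5.69 CPM in WT-HFD.

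To compare levels between genes, CPM was divided by the length of each gene's exons in kilobases. By the mean over all libraries the highest members were Trim12c, Trim28, Trim8, Trim44, Trim35 and Trim41. Trim28 had 21.5 ± 9.02 CPM per kb in RFP KO-HFD and 23.5 ± 7.84 CPM per kb in WT-HFD (SD, n = 3 each), and Trim8 had 24.2 ± 7.48 CPM per kb in RFP KO-HFD and 20.2 ± 1.32 CPM per kb in WT-HFD. The place of Trim12c rested on RFP KO-HFD 1, since its mean level was 76.5 ± 109 CPM per kb in RFP KO-HFD and 7.14 ± 0.58 CPM per kb in WT-HFD. Trim44 and Trim35 came next in WT-HFD, with 15.6 ± 0.60 and 15.1 ± 1.17 CPM per kb, and did not differ beyond their spread. Trim27 had 1.70 ± 1.58 CPM per kb in RFP KO-HFD and 5.60 ± 1.61 CPM per kb in WT-HFD, and by its WT-HFD mean it was at rank 12 of the 42 members.

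**Figure D5:**
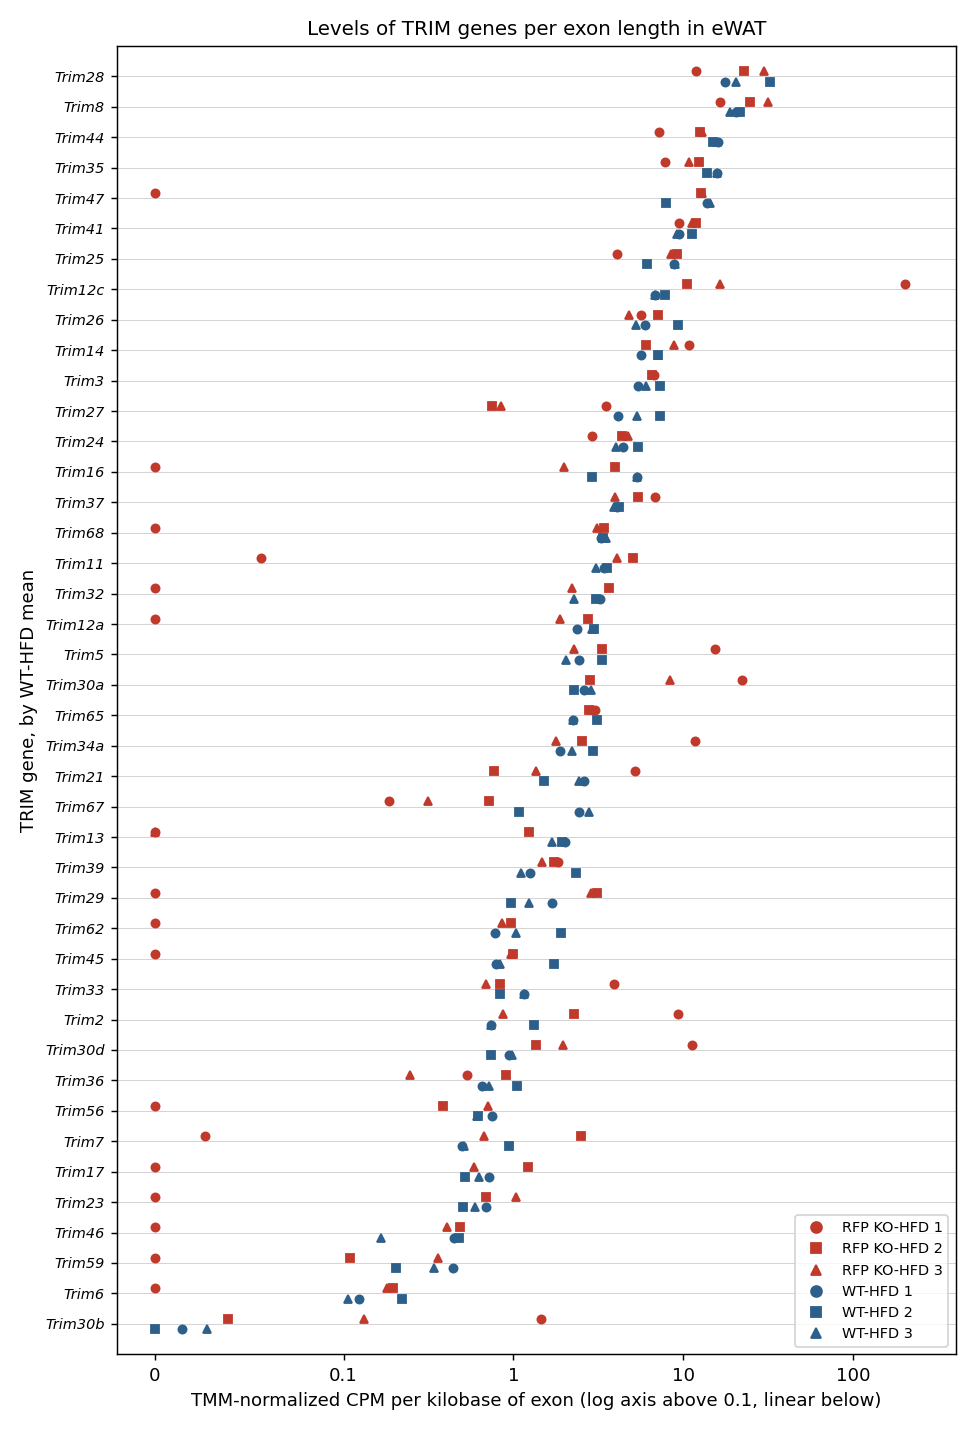
Level of the 42 TRIM genes per kilobase of exon in each library, ordered by the WT-HFD mean, with RFP KO-HFD points above WT-HFD points in each row and an axis that is logarithmic above 0.1 and linear below. Trim28 and Trim8 lead in WT-HFD at 23.5 and 20.2 CPM per kb, and RFP KO-HFD 1 holds the points at 0 for 15 genes.

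Genes around the family were counted from lists of known functions. Of 12 tested interferon-linked TRIM genes, a list that includes Pml, 4 were on the higher side at an unadjusted p under 0.05 (Trim12c, Trim30a, Trim30d and Pml), against 4.05% of all genes, and none on the lower. This count was 2 without RFP KO-HFD 1, Trim12c and Pml, against 12.1% of all genes. Their median log2 fold change was 0.77, and 0.11 without RFP KO-HFD 1, against -0.13 and -0.070 for all genes. Pml, the TRIM that builds nuclear bodies and carries no Trim symbol, had 102, 33.2 and 54.8 CPM in RFP KO-HFD, against 21.6, 29.8 and 22.5 CPM in WT-HFD. Its groups did not overlap, with a log2 fold change of 1.36 ± 0.50 (adjusted p = 0.681, edgeR) and 0.82 without RFP KO-HFD 1.

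Of 14 other interferon response genes, 5 were on the higher side at an unadjusted p under 0.05, against 4.05% of all genes, and none on the lower, with a median log2 fold change of 1.23 (0.84 without RFP KO-HFD 1, where 8 were on the higher side, against 12.1% of all genes). Irf7, the transcription factor that amplifies interferon production, had 156, 102 and 61.3 CPM in RFP KO-HFD, against 18.6, 15.3 and 21.7 CPM in WT-HFD. All RFP KO-HFD libraries were well above all WT-HFD libraries, and its log2 fold change was 2.52 ± 0.46 (adjusted p = 0.599, edgeR), and 2.13 without RFP KO-HFD 1. Bst2 (tetherin) had a log2 fold change of 1.29, Stat2 of 1.13 and Ifit1 of 1.80, all with groups that did not overlap. Among all genes, 23.3% had groups that did not overlap. The interferon-stimulated response element core was in a window of 7 of the 11 genes of this list that have one. These genes were listed for their known response to interferon, so this count says nothing about these mice. It is a count of genes, whereas the 2.98% given above is a share of windows. Hepatocyte markers lay in the same direction, 10 of 10 on the higher side at an unadjusted p under 0.05 with a median log2 fold change of 6.32 (3.30 without RFP KO-HFD 1), and macrophage markers in the other, 4 of 8 on the lower side, with summed levels of 406 to 1518 CPM in RFP KO-HFD, against 1480 to 3315 CPM in WT-HFD. Their part in the TRIM and interferon values was not tested.

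Of the partners and substrates of RFP, 11 of 14 were tested and 1 was at an unadjusted p under 0.05, against 6.75% of all genes. When RFP KO-HFD 1 was left out, 4 were on the lower side (Stk38l, Vps35, Tbk1 and Usp7) and 1 on the higher (Washc1), against 24.7% of all genes. Stk38l, a kinase of the NDR family, had 4.45, 7.75 and 9.25 CPM in RFP KO-HFD, against 34.1, 23.4 and 30.8 CPM in WT-HFD. The groups lay far apart, with a log2 fold change of -2.04 ± 0.52 (adjusted p = 0.599, edgeR) and -1.81 without RFP KO-HFD 1 (adjusted p = 0.0672). Groups that did not overlap were also found for Usp7, a deubiquitinase, and Vps35, a retromer subunit, both lower in every RFP KO-HFD library. The same held for Washc1, a subunit of the WASH complex, higher in every one. Log2 fold changes were -0.48 (Usp7), -1.98 (Vps35) and 0.57 (Washc1). Such separation was common, since the groups did not overlap for 23.3% of all genes, 1070 higher and 2350 lower. Pparg, the master regulator of fat cell differentiation, had 39.4, 32.5 and 29.4 CPM in RFP KO-HFD, against 68.9, 18.2 and 57.0 CPM in WT-HFD, and the low value of WT-HFD 2 made the groups overlap. None of the 10 E2 enzymes that serve TRIM RING fingers was at an unadjusted p under 0.05 (median log2 fold change -0.37), nor any of the 8 silencing partners of Trim28 (median -0.050). With RFP KO-HFD 1 left out, 1 of the 10 E2 enzymes was on the lower side, against 12.6% of all genes. The 8 silencing partners had 1 gene on each side, against 24.7% of all genes in both directions.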

How the data were processed

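Poly(A)-selected mRNA of eWAT from 6 mice was sequenced as paired-end reads, 1 library per mouse. Reads were aligned with STAR and quantified with Salmon according to the study's methods, after quality control with FastQC and trimming (Fastp in the methods, Trimmomatic in the submitters' processing notes). The authors deposited whole-number counts per gene and log2 values of TMM-normalized CPM plus 1. The counts were analysed, and the log2 values served only to check the scale (values recomputed from the counts differed from them by at most 0.0969). The deposited table also holds p-values, q-values and fold ratios of the authors' own comparison, which were not used. Whether the counting used strand is not given in the sources used here.

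Genes were filtered with filterByExpr (minimum count 10, minimum total 15), scaled by TMM and tested with edgeR 4.0.16 (R 4.3.3) by the quasi-likelihood test, with Benjamini-Hochberg adjustment over all 14706 genes. Fitted log2 fold changes are RFP KO-HFD over WT-HFD and depend on a prior count where a library is at 0. Alternatives used DESeq2 1.42.0, voom of limma 3.58.1 (plain, or with quality weights), other scalings and filters, a replicate block and left-out libraries. Exon lengths and 31-base words came from GENCODE M21 (GRCm38) by symbol, for all 42 members. The test was checked on counts simulated from the profile of the other libraries without RFP KO-HFD 1. That check does not cover a library whose markers differ as those of RFP KO-HFD 1 do. Total counts of 4870239 to 17215047 per library limit the precision of low genes.

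Members and gene lists were chosen with earlier results of these data known. Described one by one were Trim27, the members at an unadjusted p under 0.05, the 6 members of highest CPM per kb, and the members with 100 or more counts but none in 1 library. Others were given by class.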

Additional observations from a re-analysis of the deposited data

How the results depend on the processing

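Genes at an adjusted p under 0.05 numbered 0 in edgeR, 488 in DESeq2, 1059 in limma-voom with quality weights, 0 in limma-voom, and 507 without RFP KO-HFD 1 and WT-HFD 2 together, and leaving out 1 library gave 0 to 2. At an unadjusted p under 0.05, edgeR gave 992 genes. TRIM members at an unadjusted p under 0.05 numbered 5, against 3 in limma-voom, 9 with quality weights and 0 to 6 with 1 library left out. Their median log2 fold change of -0.13 was -0.51 in limma-voom, 0.12 with quality weights, -0.53 on library totals, 0.12 among genes with 10 counts in every library, 0.20 without RFP KO-HFD 1 and WT-HFD 2, and -0.34 to 0.066 with 1 library left out. Trim27 kept its direction under every alternative run, at -2.59 (adjusted p = 0.0356) with quality weights and -2.59 (adjusted p = 0.0402) without RFP KO-HFD 1 and WT-HFD 2. The cause of these shifts was not tested.

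The sources used here do not state that the replicate numbers pair the mice, so the main fit had no replicate block. Deviations of same-numbered libraries correlated at 0.0428, 0.0473 and 0.0893, each the highest value of its library. With 3 mice per group these values cannot decide whether the mice were paired. With a replicate block, 0 members were at an unadjusted p under 0.05, 0 genes passed at an adjusted p under 0.05 in edgeR, the median was -0.32 and Trim29 was at -0.053.

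Among the members described one by one, the signs of these log2 fold changes turned, none of them past an adjusted p of 0.05. Other members whose sign turned without RFP KO-HFD 1 are given above. In limma-voom Trim29 was at -1.19. With quality weights Trim28 was at 0.40, Trim17 at 0.32, Trim46 at 0.77, Trim32 at 0.066, Trim23 at 0.35 and Trim45 at 0.15. On library totals Trim41 was at -0.23 and Trim8 at -0.13. With 1 library left out, Trim28 ran from -0.47 to 0.16 (above 0 without RFP KO-HFD 1 or WT-HFD 2), Trim17 from -0.96 to 0.52 and Trim23 from -0.78 to 0.52 (above 0 without RFP KO-HFD 1 or WT-HFD 1), and Trim47 from -0.93 to 0.080, Trim46 from -0.71 to 0.28 and Trim32 from -1.29 to 0.032 (above 0 without RFP KO-HFD 1), whereas Trim8 ran from -0.0023 (without RFP KO-HFD 3) to 0.46. Without RFP KO-HFD 1 and WT-HFD 2, Trim28 was at 0.46, Trim17 at 0.42, Trim62 at 0.0018, Trim46 at 0.53, Trim32 at 0.088, Trim23 at 0.42 and Trim45 at 0.26.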

Other observations

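Some TRIM genes under the count minimum had nearly all their counts in RFP KO-HFD 2. Trim80 had 0, 46 and 0 counts in RFP KO-HFD 1, 2 and 3, against 0, 1 and 2 in WT-HFD, and Trim43c had 0, 9 and 0 counts in RFP KO-HFD, against 0 in each WT-HFD library. RFP KO-HFD 2 is also the library in which male germ cell markers summed to 509 CPM, and their part in these counts was not tested. Trim10 had 16 of its 19 counts in WT-HFD 2. The muscle ligases Trim54 and Trim55 had no count in any library, and Trim63 had 5 counts in RFP KO-HFD 2 and 3 in WT-HFD 2.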
